A study of Mus musculus with 20 samples.

Results

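Thermosensory transient receptor potential (TRP) channels are cation channels of the vanilloid (TRPV), melastatin (TRPM) and ankyrin (TRPA) subfamilies that open in response to heat, cold, irritant chemicals or intracellular calcium. The 10 genes described here (Trpv1, Trpv2, Trpv3, Trpv4, Trpm2, Trpm3, Trpm4, Trpm5, Trpm8 and Trpa1) were chosen by their role in sensing temperature or chemicals, with earlier results of these data known. All 10 were found by symbol among the 37620 Ensembl genes of the table. RNA was sequenced from whole dorsal root ganglia (DRG) of C57Bl/6 mouse embryos at E18.5. Each of 10 donor embryos, 5 male (M1, M3, M5, M7 and M8) and 5 female (F3, F7, F8, F9 and F10), gave 1 library from lumbar ganglia (L4-5) and 1 from the adjacent L6-S1 ganglia, called sacral here. The study looked for transcripts of the sensory neurons that supply pelvic organs, which lie at the sacral and not at the lumbar level, and asked whether regional and sex differences already exist at this embryonic age.

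In the sensory neurons of the DRG, these channels turn a physical or chemical stimulus at the nerve ending into a depolarizing current. TRPV1 responds to noxious heat and capsaicin and marks many peptidergic nociceptors, TRPM8 responds to cooling and menthol and marks cold-sensing neurons, and TRPA1 responds to mustard oil and other electrophilic irritants. TRPM3 responds to heat and pregnenolone sulfate, TRPM2 to warmth and oxidative signals, and TRPV2, TRPV3 and TRPV4 are further heat, warmth and osmotic sensors that are also used outside neurons. TRPM4 and TRPM5 are calcium-activated channels that pass monovalent cations, and TRPM5 is best known from taste cells.

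The values are log2 RPKM, in which reads are corrected for exon length and library size, so levels can be compared between genes. Whole reads were recovered from these values, and their sum over 28324 genes ran from 19403023 to 39257771 per library. Between 18.12% and 61.44% of them came from 2 mitochondrial ribosomal RNA (rRNA) genes. The lumbar library of M5 had the highest share, and the lumbar libraries of F7 and F8 were next among lumbar DRG, so the level differences of Trpm8, Trpv1 and Trpm5 are also given without donors that move them. All 12 pan-neuronal genes checked had reads in every group, with summed levels of 1261 to 2912 RPKM in lumbar and 577 to 2049 RPKM in sacral libraries. A library holds neurons, glia and surrounding tissue together, so fewer cells of a type and less RNA per cell cannot be told apart. The labels number the male and the female libraries in separate blocks, so anything that went with these blocks cannot be told apart from sex.

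The sequences around the start sites of the 2 genes that passed the test between levels are shown first, since the regional comparison turns on these, one a cold and one a heat receptor. Both are RefSeq sequences of build GRCm38.p6 on the + strand, running from 250 bases before to 50 bases after the annotated start. Capitals mark the core motif of Runx factors (TGTGGT or its complement ACCACA) and the TATA motif (TATAAA or TTTATA), searched on both strands. The Trpm8 sequence is chr1:88306485-88306784 and the Trpv1 sequence is chr11:73233899-73234198.
Trpm8: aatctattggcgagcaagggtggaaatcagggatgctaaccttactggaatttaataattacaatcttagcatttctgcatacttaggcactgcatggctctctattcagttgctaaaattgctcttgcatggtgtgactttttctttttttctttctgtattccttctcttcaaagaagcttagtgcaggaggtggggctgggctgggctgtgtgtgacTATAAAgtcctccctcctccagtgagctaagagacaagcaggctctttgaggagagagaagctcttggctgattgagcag
Trpv1: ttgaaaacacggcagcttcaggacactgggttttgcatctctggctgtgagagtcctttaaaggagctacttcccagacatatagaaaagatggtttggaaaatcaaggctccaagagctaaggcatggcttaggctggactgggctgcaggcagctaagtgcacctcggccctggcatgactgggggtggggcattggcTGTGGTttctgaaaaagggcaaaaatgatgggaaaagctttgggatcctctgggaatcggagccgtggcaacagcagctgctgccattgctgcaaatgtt

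The Trpm8 window held TATAAA, 30 bases before the start, and no Runx core motif, and the Trpv1 window held TGTGGT, 50 bases before the start, and no TATA motif. Of 32851 promoter windows of the same length, 16.8% held the Runx core motif and 13.6% the TATA motif, so each match is common, and neither shows that a factor binds there. The Trpm8 window had a GC content of 44.3% and the Trpv1 window one of 51.7%. RefSeq start regions were matched for 8 of the 10 genes.

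Trpm3 had the highest level of the 10 genes in DRG at E18.5 and Trpa1 the lowest. On the log2 RPKM scale, Trpm3 averaged 3.31 ± 0.22 (SD, n = 20 libraries) and exceeded each of Trpv1, Trpv2 and Trpm8 in all 20. The order of these 3 depended on the level. In lumbar DRG Trpm8 was the second gene, at 2.32 ± 0.62 (SD, n = 10), above Trpv1 (1.65 ± 0.48) in 8 of 10 and above Trpv2 (1.502 ± 0.631) in 10 of 10 libraries, while Trpv1 was above Trpv2 in 7. In sacral DRG Trpv1 was second, at 2.35 ± 0.58, above Trpv2 (1.32 ± 0.44) in 9 of 10 libraries, and Trpm8 (0.16 ± 1.19) was below both in 10 of 10. A second tier lay around 1 RPKM, where over the 20 libraries Trpm4 averaged -0.09 ± 0.54, Trpm2 -0.31 ± 0.44 and Trpm5 -0.56 ± 0.93 log2 RPKM. The order within this tier did not exceed the spread, since Trpm4 was above Trpm2 in 10 libraries and Trpm2 above Trpm5 in 12. Trpv3 (-2.25 ± 1.69), Trpv4 (-2.42 ± 1.09) and Trpa1 (-4.19 ± 1.46) were the lowest.

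**Figure D1:**
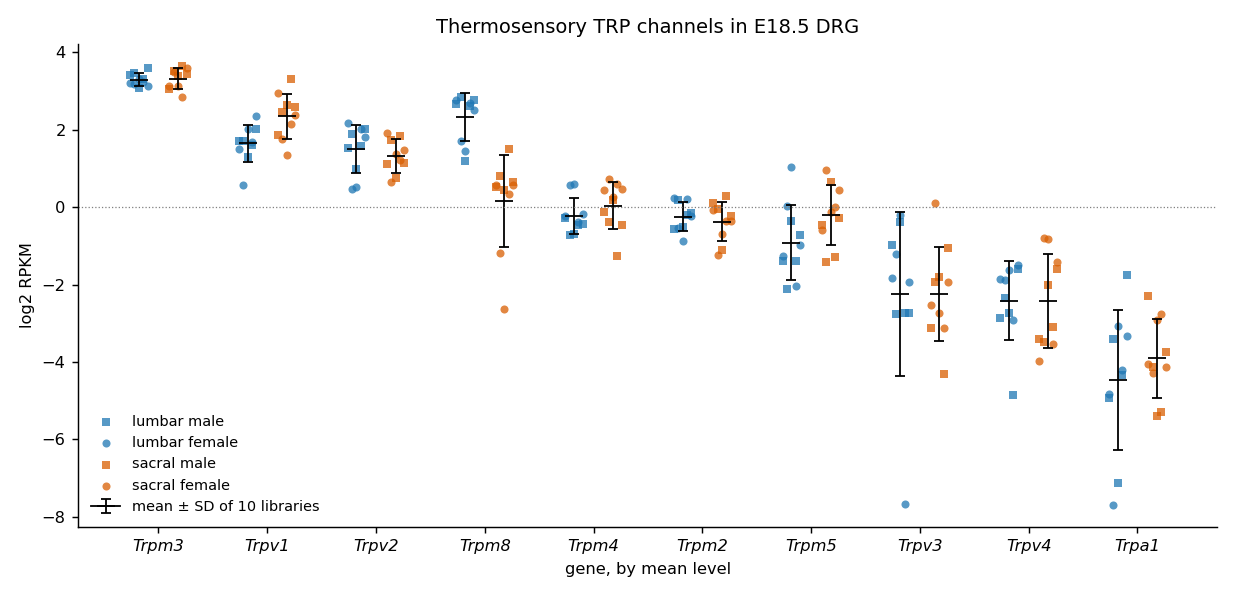
Level of each gene in log2 RPKM (y axis) in the 20 libraries, with lumbar libraries in blue, sacral in orange, squares for male and circles for female donors, and bars for the mean ± SD of 10 libraries. Trpm3 is highest and varies least, the lumbar and sacral points of Trpm8 lie furthest apart, and the 3 lowest genes spread over several log2 units. Blanks for Trpa1 are drawn at the value of 0.5 reads.

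Reads set how firmly these levels are known. Trpm3 was read 1150 to 3411 times per library, Trpv1 133 to 1112 times and Trpm8 20 to 1099 times. Trpa1 had 0 to 43 reads per library, 212 in all, and was above 3 reads in 16 of 20 libraries. The study reported Trpa1 as not detectable at E18.5, without stating the limit used for that. The lumbar libraries of M5 and F7 had 0 reads of Trpa1, and 0 reads leave room for a true count of up to 3 (95% confidence, counting error only). Trpv4 had 4 to 61 reads and Trpv3 1 to 210.

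The 10 genes lie on 6 chromosomes in build mm9. Trpm8 spans positions 90174236 to 90285868 of chromosome 1 on the + strand, and Trpa1 lies on the same chromosome at 14862729 to 14908943 on the - strand. Trpv1 (chromosome 11, 73047794 to 73074744) is followed by Trpv3 (73080890 to 73113865) on the same strand after a gap of 6145 bases, and Trpv2 is at 62387988 to 62414017 of that chromosome. The neighbours Trpv1 and Trpv3 differed in level in these ganglia, with 133 to 1112 against 1 to 210 reads. Trpm3 covers the longest stretch, from 22213609 to 23064374 of chromosome 19, and holds the miRNA gene Mir204 and the snoRNA gene SNORA17 without sharing exon bases with them. Trpm4 and Trpm5 lie on chromosome 7, at 52558002 to 52589150 and 150255058 to 150280547. The pseudogene Rpl14-ps1 lies within Trpm4, also with no shared exon bases. Trpm5 shares 220 exon bases with Tssc4 on the opposite strand, and whether the counting used strand is not stated. Trpm2 is on chromosome 10 (77370467 to 77433308) and Trpv4 on chromosome 5 (115072161 to 115108430).

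To find which of these channels differ by region, the sacral library of each donor was compared with its lumbar library over both sexes. Trpm8 fell in sacral DRG to 0.223 times its lumbar level and Trpv1 rose 1.63-fold. The study had already listed both genes as differing between levels at E18.5, in these directions. Trpm3, Trpv2, Trpm4 and Trpm5 did not pass the test, and the remaining 4 genes did not reach its filter, a mean of 1 RPKM in a group. Trpm2 was one of these, though its mean over the 20 libraries (-0.31 log2 RPKM) was above that of Trpm5 (-0.56). In the limma fit 2 of the 6 genes tested passed an adjusted p of 0.05, against 6.73% of all 14529 genes tested, and 3 of 6 had an unadjusted p under 0.05, against 24.1% of all genes. The median difference was 0.15 on the log2 scale over the 6 genes and -0.05 over all genes, and 4 of the 6 differences were positive. Over all genes 392 calls were higher and 586 lower in sacral DRG, a split that depended on scaling, with 475 and 324 when library size left out mitochondrial rRNA and 1673 and 124 when libraries were centred on pan-neuronal genes.

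Trpm8, the cold and menthol receptor, was upregulated in lumbar DRG. In lumbar male DRG its level was 2.66 log2 RPKM in M1, 2.84 in M3, 1.182 in M5, 2.61 in M7 and 2.77 in M8, and in the sacral DRG of the same embryos it was 0.52, 0.80, 0.45, 1.501 and 0.65. In lumbar female DRG it was 2.78 in F3, 1.72 in F7, 1.45 in F8, 2.69 in F9 and 2.51 in F10, and in their sacral DRG 0.58, -1.185, -2.64, 0.35 and 0.57. The sacral library was the lower one in 10 of 10 donors, a constancy of direction found for 2.85% of all genes tested. The 2 levels overlapped only through the lumbar libraries of M5 and F8, since 8 of 10 lumbar values lay above the highest sacral value, that of M7. In linear units, male DRG went from 5.74 ± 1.98 RPKM (SD, n = 5) at the lumbar to 1.79 ± 0.60 RPKM at the sacral level, and female DRG from 5.01 ± 1.88 to 0.972 ± 0.628 RPKM.

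The log2 difference of Trpm8, sacral minus lumbar, was -2.16 ± 0.27 (SE, 95% interval -2.73 to -1.59), with an adjusted p of 8.48e-05 by limma. It ranked 6 of 14529 genes from the most negative. Within donors it ran from -0.73 in M5 to -4.09 in F8, where the sacral library held 20 reads of Trpm8 and the lumbar library 535. Without F8 the difference was -1.99, and without M5 it was -2.27. Over all alternatives run, leaving out each donor included, it stayed between -2.35 and -1.42, with limma adjusted p-values from 3.62e-06 to 0.00286. The value of -1.42 came from log2(RPKM + 1), a different scale. Among the other alternatives the smallest difference was -1.84, with libraries centred on pan-neuronal genes.

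An antisense transcript, 4930453O03Rik (chromosome 1, 90244064 to 90249505), lies inside Trpm8 on the opposite strand and shares 388 of its 1236 exon bases with it. Reads assigned to it numbered 0 to 101 per library and fell in sacral DRG, with a log2 difference of -2.25 ± 0.47 (SE; limma, adjusted p = 0.0081). The study made its libraries from double-stranded cDNA, and use of strand in counting is not stated. Without strand, reads of this transcript cannot be told apart from reads of Trpm8 RNA, so its fall is not a result separate from that of Trpm8.

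Trpv1, the capsaicin and heat receptor, was upregulated in sacral DRG. In lumbar male DRG it was at 1.72 log2 RPKM in M1, 1.71 in M3, 1.30 in M5, 1.59 in M7 and 2.02 in M8, and in the sacral DRG of these embryos at 1.87, 2.47, 2.65, 3.32 and 2.58. In lumbar female DRG it was at 1.49 in F3, 0.57 in F7, 2.03 in F8, 1.69 in F9 and 2.35 in F10, and in sacral female DRG at 2.96, 1.77, 1.35, 2.14 and 2.39. The sacral library was the higher one in 9 of 10 donors, with F8 as the exception, and the levels overlapped, with 6 of 10 sacral values above every lumbar value. Mean RPKM in male DRG went from 3.22 ± 0.57 (SD, n = 5) to 6.29 ± 2.30, and in female DRG from 3.34 ± 1.35 to 4.68 ± 2.002.

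The log2 difference of Trpv1 was 0.70 ± 0.19 (SE, 95% interval 0.30 to 1.10; limma, adjusted p = 0.0322). This call was close to the threshold. It was lost when M3, M5, M7, F3, F7 or F9 was left out, with adjusted p-values of 0.0584 to 0.0989, and without the donor block (0.13), with donor as a fixed block (0.0607) or with no filter on low values (0.0802), while the difference stayed between 0.50 and 1.02 over all alternatives run. Without F8 it was 0.85, with an adjusted p of 0.00567.

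**Figure D2:**
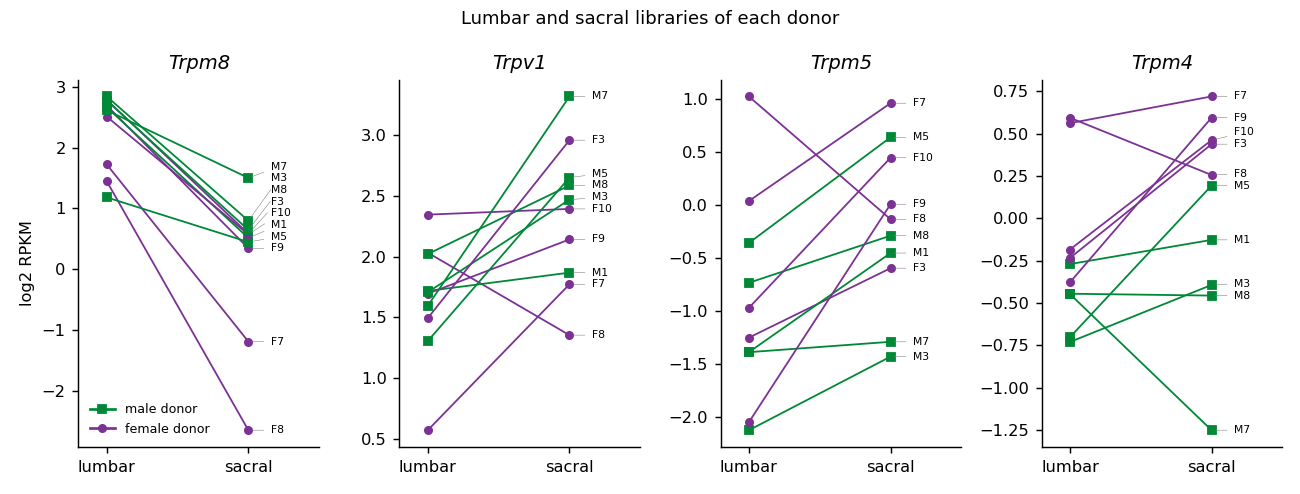
Lines join the lumbar and the sacral library of each donor in log2 RPKM (y axis, one scale per gene), green squares for male and purple circles for female donors. All 10 lines of Trpm8 fall, 9 of 10 lines of Trpv1 and of Trpm5 rise with F8 as the exception, and the sacral values of Trpm4 are higher in the 5 female than in the 5 male donors.

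Because Trpm8 and Trpv1 moved in opposite directions, their ratio within a library was examined, a quantity that no library scaling can change. In lumbar DRG the log2 level of Trpm8 minus that of Trpv1 ran from -0.58 to 1.29 with a median of 0.97, and Trpm8 was the higher gene in 8 of 10 libraries. In sacral DRG it ran from -3.99 to -1.35 with a median of -1.88, and Trpm8 was the higher gene in 0 of 10. The ranges did not overlap, and this was so for 0.145% of all genes set against Trpv1 in the same way. Both genes were chosen for this ratio after their differences were seen, so it is given as a description.

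The make-up of the channel transcripts shows the same shift. Summed over the 10 genes, lumbar libraries held 18.3 to 30.0 RPKM and sacral libraries 17.7 to 31.2 RPKM, ranges that overlapped almost entirely. Trpm8 gave 21.3% ± 5.5 (SD, n = 10) of that sum in lumbar DRG, with a range of 11.5% to 25.9%, and 5.75% ± 2.49 in sacral DRG, with a range of 0.908% to 9.07%. Trpv1 gave 13.2% ± 3.3 in lumbar and 23.0% ± 5.9 in sacral DRG. Trpm3 was the largest part at both levels, at 40.4% ± 4.5 and 44.1% ± 4.9.

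**Figure D3:**
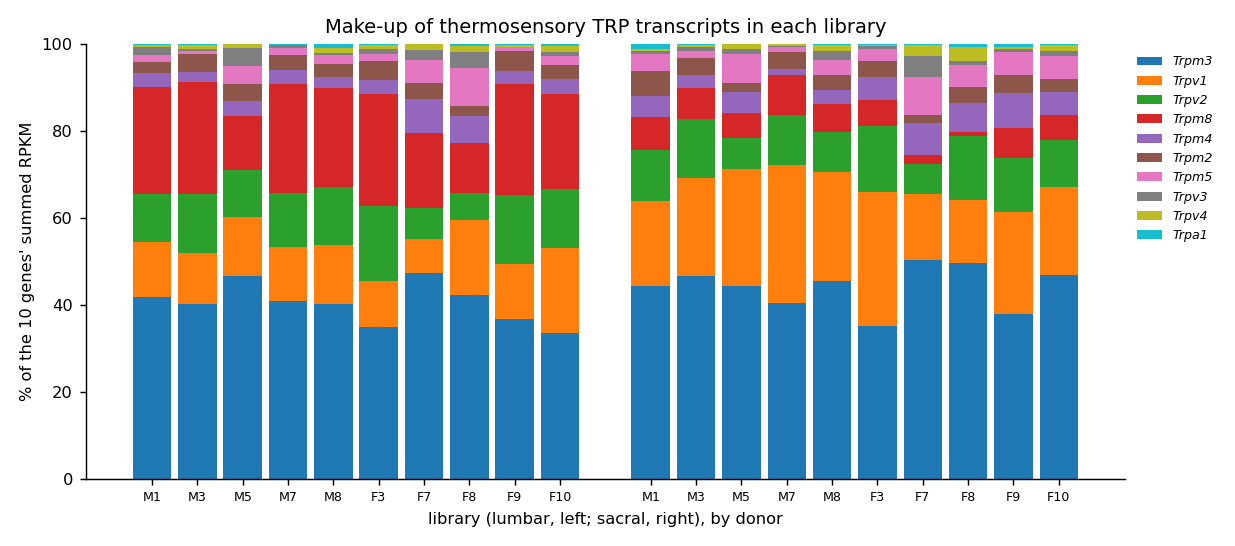
Each bar is 1 library, by donor, with lumbar libraries on the left and sacral on the right. Colours give the percentage of the summed RPKM of the 10 genes that each gene held (y axis, 0 to 100%). Trpm8 (red) holds 11.5% to 25.9% of lumbar bars and at most 9.07% of sacral bars.

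Trpm5 showed a difference of nearly the same size as Trpv1 but with more spread. Its mean reached the filter of 1 RPKM only in sacral female DRG, at 0.14 log2 RPKM, so its sacral rise is not independent of that filter. It was at -1.39, -2.12, -0.36, -1.39 and -0.73 log2 RPKM in the lumbar DRG of M1, M3, M5, M7 and M8, and at -0.45, -1.43, 0.64, -1.29 and -0.29 in their sacral DRG. In the females F3, F7, F8, F9 and F10 it was at -1.25, 0.04, 1.03, -2.05 and -0.97 in lumbar and at -0.59, 0.96, -0.13, 0.01 and 0.45 in sacral DRG. The sacral library was higher in 9 of 10 donors and the levels overlapped, with the lumbar library of F8, at 541 reads, above every sacral library. The log2 difference was 0.71 ± 0.31 (SE, 95% interval 0.06 to 1.35; limma, adjusted p = 0.168). Leaving out F8 gave 0.95 with an adjusted p of 0.0374, and weighting the libraries gave 0.91 with an adjusted p of 0.0205. Tssc4, which shares exon bases with Trpm5, differed by 0.01 ± 0.16 (adjusted p = 0.987).

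The other 3 genes tested moved little between levels. The log2 difference of Trpm3 was 0.03 ± 0.09 (SE, 95% interval -0.16 to 0.22; adjusted p = 0.869), and 5 donors went each way. This is the narrowest interval of the 6 genes. Trpm4, the calcium-activated channel, differed by 0.27 ± 0.17 (-0.09 to 0.63, adjusted p = 0.347), with the sacral library higher in 7 of 10 donors. Trpv2 differed by -0.18 ± 0.18 (-0.56 to 0.20, adjusted p = 0.571), with the sacral library lower in 7 of 10 donors.

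The 4 genes below 1 RPKM in every group were compared by an exact sign-flip permutation test over donors (two-sided, smallest possible p 0.00195), and 0 of 4 gave an unadjusted p under 0.05. No share over all genes was taken for this test, so the count is given as a description. The warmth and redox sensor Trpm2, which had 113 to 502 reads per library, differed by -0.13 ± 0.46 on the log2 scale (SD of 10 donors, exact permutation p = 0.396), with 7 donors lower in sacral DRG. Trpv4 differed by 0.00 ± 1.15 (exact permutation p = 0.996) and Trpv3 by -0.01 ± 2.16 (exact permutation p = 0.992), with 5 donors each way for both. Trpa1, the irritant receptor, differed by 0.57 ± 1.73 (exact permutation p = 0.336), with 6 donors higher. With no filter on low values, limma gave the 4 genes adjusted p-values of 0.662 to 0.999. The spread between donors was 1.15 to 2.16 log2 units (SD) for Trpv4, Trpa1 and Trpv3, against 0.46 for Trpm2, so small regional differences of these 3 genes were less well resolved.

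The level difference was then taken within each sex. In females Trpm8 passed the test, at -2.69 ± 0.39 on the log2 scale (SE; limma, adjusted p = 0.000982), as did 0.881% of all genes. In males it was -1.63 ± 0.39 (adjusted p = 0.0634), and 0 of the 6 genes passed, against 0.461% of all genes, though 2 had an unadjusted p under 0.05 (11.9% of all genes). All 5 male donors had less Trpm8 in sacral DRG. The male difference passed in 6 of the 24 alternatives run on it. Among these were donor as a fixed block (limma, adjusted p = 0.0453), a limma-voom fit on the recovered reads (0.0118) and the fit without F8 (0.00472). F8 is a female whose libraries enter the shared estimate of spread. A minimum of 5 RPKM was also among the 6. Trpm8 met it only in lumbar male DRG, at a mean of 2.41 log2 RPKM, so that pass is not independent of the filter. In the alternatives beyond these 6 the male difference did not pass, with limma adjusted p-values of up to 0.43 (no donor block). Trpv1 was 0.91 ± 0.27 higher in sacral DRG in males (adjusted p = 0.148) and 0.50 ± 0.27 in females (adjusted p = 0.339). The difference between the sexes themselves, the interaction, was -1.06 ± 0.55 for Trpm8 (95% interval -2.20 to 0.07, adjusted p = 0.995) and -0.41 ± 0.38 for Trpv1 (-1.21 to 0.38, adjusted p = 0.995). Single donors moved the Trpv1 values, which in females were 0.25 without F3, 0.32 without F7 and 0.79 without F8, and for the interaction -0.66 without F3, -0.21 without M7 and -0.12 without F8. For the interaction limma called 0 of 14529 genes (0%), with 470 (3.23%) at an unadjusted p under 0.05, and 0 of the 6 genes were among the 470.

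**Figure D4:**
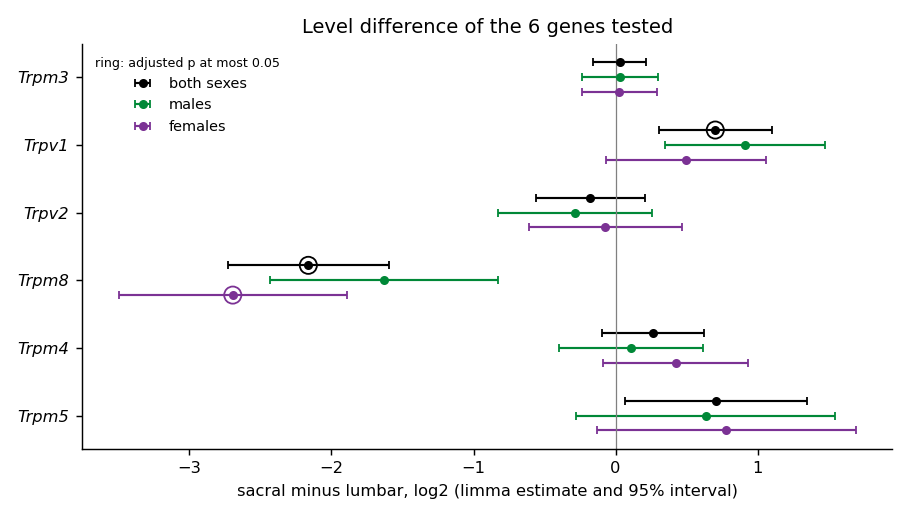
Sacral minus lumbar difference on the log2 scale (x axis) with its 95% interval from limma for the 6 genes tested, in black for both sexes, green for males and purple for females, with rings around values at an adjusted p of at most 0.05. Trpm8 lies left of 0 in both sexes, Trpv1 lies right of 0 with its female interval reaching -0.07, and Trpm3 lies on 0.

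Between females and males of the same level, limma called 0 of the 6 genes in lumbar DRG (0.33% of all genes were called) and 0 of 6 in sacral DRG (1.01% of all genes). At an unadjusted p under 0.05 there were 0 in lumbar DRG (8.28% of all genes) and 2 in sacral DRG (15.5%), Trpm4 and Trpm8. Sacral Trpm4 was at -0.13, -0.39, 0.19, -1.25 and -0.46 log2 RPKM in M1, M3, M5, M7 and M8, and at 0.44, 0.72, 0.26, 0.59 and 0.46 in F3, F7, F8, F9 and F10. All 5 female values lay above all 5 male values, as was so in one direction or the other for 3.96% of all genes. The difference was 0.90 ± 0.30 (SE; limma, adjusted p = 0.157). The mean of Trpm4 reached the filter of 1 RPKM only in female DRG (0.07 log2 RPKM in lumbar and 0.49 in sacral, against -0.52 and -0.41 in males). Its higher female values are therefore not independent of that filter. In lumbar DRG the sexes overlapped for Trpm4, with a difference of 0.59 ± 0.30 (adjusted p = 0.626). Sacral Trpm8 was lower in females by -1.25 ± 0.48 (adjusted p = 0.218), where F7 and F8 were lowest, and the value was -0.70 without F8 and -1.07 without F7. Lumbar Trpm8 differed by -0.18 ± 0.47 (adjusted p = 0.956).

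Markers of some other cell types also differed between levels, and the counts below stand against 6.73% of all genes called. Of 12 pan-neuronal genes 2 fell in sacral DRG (the neurofilament Nefl and the synaptic Snap25), with a list median of -0.31, and of 12 nociceptor genes 1 fell (the substance P precursor Tac1), with a median of -0.21 and summed levels of 295 to 582 RPKM in lumbar and 170 to 522 RPKM in sacral libraries. Among 10 genes of large myelinated neurons 4 fell and 1 rose, among 12 of Schwann cells and satellite glia 5 fell (1 with libraries centred on pan-neuronal genes), and among 10 of fibroblasts and meninges 5 rose. Of 7 endothelial and mural genes tested 1 rose (Cdh5). When libraries were centred on the pan-neuronal genes, the median of all genes moved from -0.05 to 0.28. The median of the nociceptor list moved from -0.21 to 0.11, with 2 of its genes higher and 1 lower in sacral DRG, so its direction depended on scaling. On that scale Trpm8 was still lower in sacral DRG by -1.84 (limma, adjusted p = 0.000156) and Trpv1 higher by 1.02 (adjusted p = 0.00995). Markers of the non-neuronal cells that use TRPV4, TRPV3 or TRPM2 were also taken. Of 6 cartilage genes tested 2 rose (Col2a1 and Col11a1), of 5 macrophage and of 2 epithelial genes 0 passed, with 1 and 0 at an unadjusted p under 0.05, and no marker of these 3 lists was at 0 reads in any group. Their part in the levels of Trpv4, Trpv3 and Trpm2 was not tested.

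The mitochondrial rRNA share went with the level of Trpm5 and, less clearly, of Trpv2 in sacral DRG. How many of all genes went with the share there was not tested, so the relation is not shown to be particular to these channels. In lumbar DRG the share fell into 7 libraries at 20.8% to 30.8% and 3, those of M5, F7 and F8, at 43.7% to 61.4%. Trpm8 was at 2.51 to 2.84 log2 RPKM in the 7 and at 1.182 to 1.72 in the 3, Trpv2 at 1.53 to 2.19 against 0.46 to 0.99, and Trpm5 at -2.12 to -0.73 against -0.36 to 1.03, none of them overlapping. The same separation was found for 31.2% of all genes tested. Within the 7 libraries the relation was below the threshold for each of the 6 genes, with Trpm8 closest at r = -0.86 (exact permutation p = 0.0147, adjusted over 12 relations 0.0587; rho = -0.79, exact permutation p = 0.048, adjusted 0.164), and r = -0.65 without M7 and F10. Over the 10 sacral libraries Trpm5 rose with the share, with r = 0.82 (permutation p = 0.00334, adjusted 0.0401), rho = 0.92 (permutation p = 0.00064, adjusted 0.00768) and r = 0.82 without M3 and F3. Trpv2 fell with it, with r = -0.79 (permutation p = 0.00746, adjusted 0.0448), rho = -0.70 (permutation p = 0.031, adjusted 0.164) and r = -0.63 without those 2 libraries. Sacral Trpm8 did not pass, with Spearman's rho of -0.64 (adjusted permutation p = 0.164 from 0.0548) and Pearson's r of -0.38 (0.419 from 0.277), or -0.32 when M3 and F3 were left out. The share itself was higher in the sacral library of 3 of 10 donors (mean difference 0.65 ± 9.45 percentage points, exact sign-flip permutation p = 0.82), and with it as a covariate Trpm8 differed between levels by -2.14 (limma, adjusted p = 0.000128) and Trpv1 by 0.71 (adjusted p = 0.0327).

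**Figure D5:**
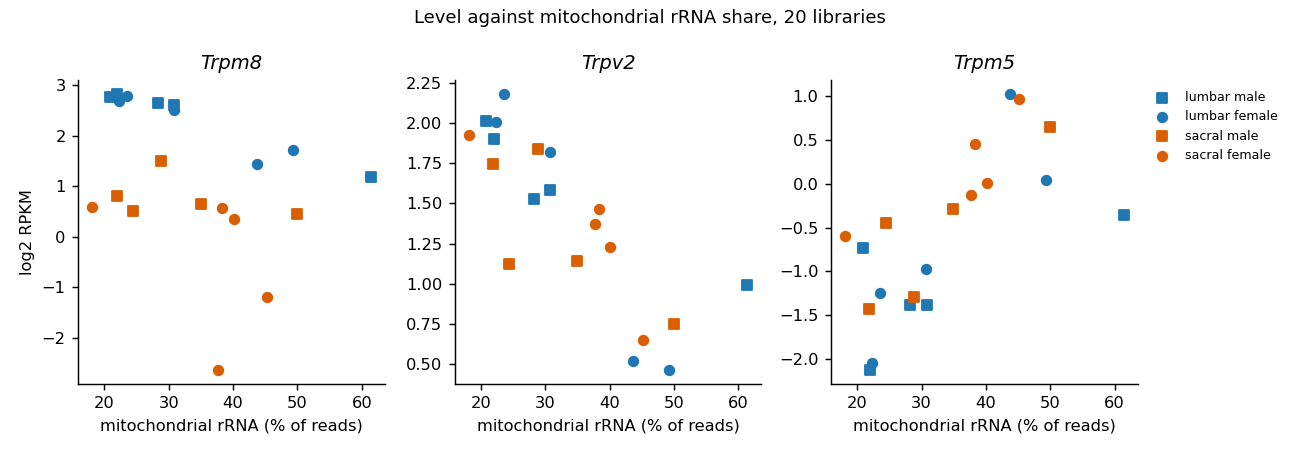
Level in log2 RPKM (y axis, one scale per gene) against the percentage of reads from mitochondrial rRNA (x axis) for Trpm8, Trpv2 and Trpm5, with lumbar libraries in blue, sacral in orange, squares for male and circles for female donors. Lumbar Trpm8 and Trpv2 are lowest and lumbar Trpm5 is highest in the 3 libraries at 43.7% to 61.4%.

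Related genes were set beside these channels. Among 18 other TRP channel genes, 8 were tested and 2 rose in sacral DRG, against 6.73% of all genes. They were Pkd2, the polycystin-2 channel, at 0.72 ± 0.19 (SE, adjusted p = 0.0286), and the canonical channel Trpc4 at 0.74 ± 0.20 (adjusted p = 0.0315), both higher in 10 of 10 donors. Among 21 genes for regulators of thermosensory channels, 17 were tested and 2 fell. The prostaglandin E2 receptor Ptger4 fell by 0.66 ± 0.17 on the log2 scale (adjusted p = 0.0238), in 10 of 10 donors, and the kinase Cdk5, which phosphorylates TRPV1, fell by 0.36 ± 0.10 (adjusted p = 0.0342), in 8 of 10. Among 16 other genes of ion channels and channel partners linked to temperature sensing, 15 were tested, 1 rose and 1 fell. The heat-sensitive potassium channel Kcnk2 (TREK-1) rose in sacral DRG by 0.59 ± 0.14 (adjusted p = 0.0146), and the Kv1.1 channel Kcna1, a brake on excitability in cold sensing, fell by 0.68 ± 0.19 (adjusted p = 0.0391). List medians were 0.22, -0.12 and -0.19, against -0.05 over all genes. With libraries centred on pan-neuronal genes Ptger4 and Cdk5 kept their sign and no longer passed, and 5 other regulators were higher in sacral DRG; with library size without mitochondrial rRNA Cdk5 did not pass.

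The genes whose profiles over the 20 libraries were most like each channel were sought among 14040 tested genes with a value in every library, as a description in libraries that share donors, levels and make-up. For Trpv1 they were Trpc4 (Pearson's r = 0.87), the nicotinic receptor subunit Chrna3 (0.82) and 6030405A18Rik (0.81). Each of these 3 was itself upregulated in sacral DRG. For Trpm8 they were Gm11549 (0.90), the carboxypeptidase inhibitor Lxn (0.87) and the protease-activated receptor F2rl2 (0.86), each of them upregulated in lumbar DRG. The genes nearest to Trpv2 were Ldoc1l (0.96), the kinase Camk1d (0.94) and 2610109H07Rik (0.93), and those nearest to Trpm5 were Ppp4r1l-ps (0.94), Cttnbp2 (0.94) and Mical2 (0.93). Trpm3 was closest to the DNA repair kinase Prkdc (0.86), Dennd4a (0.83) and Vps13b (0.83), and Trpm4 to Ing4 (0.87), Csrp2 (0.86) and Sorbs3 (0.85). Among the 6 channels themselves, Trpv2 and Trpm5 were the most opposed pair (r = -0.80), Trpm4 and Trpm5 the most alike (0.74), and Trpv1 and Trpm8 were at -0.08.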

How the data were processed

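The authors aligned reads to mm9 with Subread, counted them per Ensembl gene with featureCounts, applied TMM scaling and voom, and deposited log2 RPKM values; the submitters' processing notes name limma 3.26.9 and edgeR 3.12.1. Use of strand in counting is not given in the sources used here. The deposited values had the same median in every library, 0.930302 log2 RPKM, so the libraries were also on a common median. The step that gave this is not named in the sources used here. Gene lengths (GENCODE M1, mm9) turned 97.66% of the deposited log2 values into whole reads within 0.05. A blank was read as 0 and set to 0.5 reads. The libraries carry no molecular identifiers, so limits cover counting error only.

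Differences were tested with limma 3.58.1 (R 4.3.3, statmod 1.5.0) on all 20 libraries, with a mean per group, donor as a block (duplicateCorrelation, 0.34), eBayes with trend, and Benjamini-Hochberg adjustment over the 14529 genes with a mean of at least 1 RPKM in a group. Pairing comes from the labels: both libraries of a donor are from the same embryo. The code was tested on simulated data, where 98 of 100 genes changed 4-fold between levels and 88 of 100 changed 2-fold were recovered. Of the 199 genes called there, 13 had not been changed. The simulated noise was drawn separately for each gene, without library-wide effects such as the mitochondrial rRNA share, so these rates may not hold for the real libraries. Genes below the filter of 1 RPKM were tested by exact sign-flip permutation (SciPy 1.17.1).

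The 10 genes and the lists of related and marker genes were chosen with earlier results of these data known. All 10 were named, with the called genes of each related list (up to 6), the 3 most similar genes to each channel tested, and genes overlapping a channel.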

Additional observations from a re-analysis of the deposited data

Results flagged for a closer look

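In groups of 5 libraries or donors, 60 sets of values of the 10 genes were examined for a lone value, and chance flags about 1 in 20. There were 3 such values. Lumbar Trpm8 of male donor M5 was 1.182 log2 RPKM, against 2.61 to 2.84 in the other 4 lumbar male libraries, and this library had the highest mitochondrial rRNA share, 61.44%. Lumbar Trpv3 of female donor F9, at 1 read, was -7.67 log2 RPKM, against -1.93 to -0.20 in the other 4 lumbar female libraries. Lumbar Trpv4 of the same library was -2.90 log2 RPKM (19 reads), against -1.88 to -1.48. What set these values apart was not tested.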

How the results depend on the processing

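For the level difference, the 6 genes tested gave 2 calls, and 1 without the donor block (no replicate block), with donor as a fixed replicate block and with no filter on low values; leaving out 1 donor gave 1 to 3. The call lost was that of Trpv1, and 3 calls came with library weights and without F8, where Trpm5 passed. Trpm8 kept its call and direction under all 24 alternatives run on it. Over all genes, the 978 calls became 154 with no replicate block, 507 with no filter, 1797 with centring on pan-neuronal genes and 2998 with library weights, and leaving out 1 donor gave 401 (without F10) to 1594 (without F8), with 487 without M5, 511 without F7, 562 without F3 and 600 without M1. In males the 0 calls became 1, that of Trpm8, with donor as a fixed replicate block, a minimum of 5 RPKM, log2(RPKM + 1), library weights or voom on recovered reads, and 0 to 1 when 1 donor was left out. The block changed no other call of these genes. Trpm8 met the minimum of 5 RPKM only in lumbar male DRG, at a mean of 2.41 log2 RPKM. Trpv1 met it only in sacral male DRG, at 2.58. Calls of these genes under that setting are therefore not independent of its filter. Over all genes the calls ranged from 21 to 316 in males, 16 to 1871 in females, 14 to 228 between the sexes in lumbar and 40 to 751 in sacral DRG, and stayed at 0 for the interaction.

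Signs turned only where a difference had not passed. With centring on pan-neuronal genes Trpv2 became 0.145 over both sexes and 0.361 in females, Trpm2 0.198 and Trpv3 0.318. With library size without mitochondrial rRNA Trpv2 in females became 0.028 and Trpv3 0.061, and with centring on the median Trpv3 became 0.025. Trpv2 in females was 0.002 with the mitochondrial rRNA share as a covariate, and Trpm3 in males -0.034 with library weights. Leaving out 1 donor gave Trpm3 -0.028 to 0.081 over both sexes, -0.047 to 0.135 in males and -0.086 to 0.13 in females, Trpm4 in males -0.084 to 0.341, Trpv2 in females -0.302 to 0.107, Trpm8 between the sexes in lumbar DRG -0.491 to 0.013, Trpv3 -0.51 to 0.276 and Trpv4 -0.194 to 0.237. The cause was not tested. The lowest read numbers in a library were 0 for Trpa1, 1 for Trpv3 and 4 for Trpv4.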
